A study of Mus musculus with 10 samples.

Results

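The glucocorticoid receptor (GR) and lysine-specific demethylase 1 (LSD1) shared 3788 sites away from promoters in the skeletal muscle of fed mice at which GR was also called after starvation. These sites were 26.9% (95% CI 26.1 to 27.6) of the 14108 GR peaks of fed muscle and 34.6% (95% CI 33.7 to 35.5) of the 10954 GR peaks whose midpoint lay outside every promoter. Promoters began 1000 bp before each RefSeq transcription start site (TSS) on GRCm38 and ended 100 bp after it. A site was a member of the set when its GR fed peak shared at least 1 bp with an LSD1 fed peak and at least 1 bp with a GR starved peak. The 3 peak lists that chose the sites describe them here and support no test. Of the 4680 distal GR fed peaks that met LSD1, 80.9% (95% CI 79.8 to 82.1) were kept in this sense. Over all GR fed peaks, 48.3% shared sequence with an LSD1 fed peak and 65.8% with a GR starved peak.

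Chromatin immunoprecipitation sequencing (ChIP-seq) was run on muscle of C57BL/6J mice, labelled as 10 weeks old, that had food or were starved for 24 h. The text of the study gives another age. Its reporting summary states a minimum of mice and repeats per condition, but neither it nor the labels say whether animals were pooled in a library. There was 1 library per group for GR, LSD1, the mono- and dimethyl marks of histone H3 lysine 9 (termed H3K9me1 and H3K9me2), and input, 10 in all, so replicate error is unknown for every difference between fed and starved muscle. Each value is the fold over input that the peak caller gave to a peak, and the read depth behind it is unknown. The confidence intervals (CI) cover counting error over sites only, and neighbouring sites are not independent. The lists were less strict than the stated false discovery rate of 0.01, since the least strict q-value lay between 0.0925 and 0.0998. The LSD1 starved list held 66332 peaks and the LSD1 fed list 16616. The text of the study gives far fewer LSD1 peaks in starved than in fed muscle, so every LSD1 starved share below rests on a much longer list than the one described there. For each target, condition and library cannot be told apart, and for H3K9me1 and H3K9me2 the labels also give the fed and starved libraries different preparation codes. In whole muscle, fewer nuclei of a type and less binding per nucleus cannot be told apart either.

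GR is a nuclear receptor that moves into the nucleus when it binds glucocorticoids, and it contacts DNA as a dimer at the glucocorticoid response element (GRE), a palindrome of 2 hexamers. In muscle it is known for driving protein breakdown and a switch to fat oxidation when food is short. LSD1 removes methyl groups from histone H3 and belongs to corepressor complexes, but it also acts as a coactivator for some nuclear receptors, where its substrate is methylated lysine 9. Enhancers are distal elements at which such factors meet the factors that give a tissue its identity, which in muscle include MyoD, MEF2 and TEAD proteins.

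The sequences below carry the GRE at the sites that the report returns to. The element was searched as the hexamers AGAACA and TGTTCT spaced 3 bases apart, with at most 1 mismatch in the 12 fixed bases, in the 300 bp centred on the midpoint of the GR fed peak. Of the sites chosen by rank or gene list, 5 held such an element outside exons, and 41 bases around each are given on the plus strand of GRCm38. Capitals mark the fixed bases that match, and a lower case base inside a hexamer is the mismatch.
4933431G14Rik (chr6:72162270-72162310): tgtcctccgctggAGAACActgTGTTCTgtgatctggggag
Tsc22d3 (chrX:140513541-140513581): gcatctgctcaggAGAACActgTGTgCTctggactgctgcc
Fbxo31 (chr8:121563175-121563215): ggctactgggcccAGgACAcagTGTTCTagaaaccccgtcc
Pik3r1 (chr13:101812129-101812169): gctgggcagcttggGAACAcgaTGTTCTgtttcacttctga
Glul (chr1:153901612-153901652): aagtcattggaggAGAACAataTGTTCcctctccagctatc

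The first of these, in a site centred 39.2 kb upstream of 4933431G14Rik, held both hexamers without a mismatch and had the highest GR fed fold of the 3788 sites, 18, against 14.1 in starved muscle. The element near Tsc22d3, which encodes the anti-inflammatory leucine zipper protein GILZ, had GR folds of 11.9 and 10.8. That of Fbxo31, an F-box subunit of a ubiquitin ligase, had 11.7 in both conditions, and that of Pik3r1, the regulatory subunit of phosphoinositide 3-kinase, had 11.3 and 11.7. At Glul, which encodes glutamine synthetase, the values were 8.49 and 5.43.

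A search of whole peaks found elements beyond the central 300 bp at 3 further sites chosen by rank or list, and further exact elements outside exons were added after their values had been seen. They are shown because the exact elements differ only in the 3 spacer bases and in what flanks them.
Ddit4 (chr10:59974260-59974300): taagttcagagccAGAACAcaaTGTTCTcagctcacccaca
Map1lc3a (chr2:155292927-155292967): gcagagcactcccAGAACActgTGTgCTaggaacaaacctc
Per1 (chr11:69097063-69097103): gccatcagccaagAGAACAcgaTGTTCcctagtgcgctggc
Tulp1 (chr17:28420308-28420348): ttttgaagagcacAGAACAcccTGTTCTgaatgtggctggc
Gm33086 (chr17:7532807-7532847): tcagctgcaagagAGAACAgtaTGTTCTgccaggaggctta
Mir7223 (chr11:108023225-108023265): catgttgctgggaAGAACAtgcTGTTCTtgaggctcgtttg
Hivep2 (chr10:14032752-14032792): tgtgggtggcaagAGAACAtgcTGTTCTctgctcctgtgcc
P4ha2 (chr11:54113172-54113212): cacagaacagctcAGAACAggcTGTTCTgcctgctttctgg

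The exact element of Ddit4, which encodes the mTORC1 inhibitor REDD1, lay 258 bp from the midpoint of a GR fed peak of fold 8.58 that was centred 22.8 kb upstream of the TSS. Elements near Map1lc3a, an autophagosome protein of the LC3 family, and Per1, a repressor of the circadian clock, carried 1 mismatch each. The GR fed fold was 11.4 at the Map1lc3a site and 10.4 at the Per1 site.

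Such elements were rare among the sites. In the central 300 bp a GRE-like sequence was found at 48 of 3781 members on the assembled chromosomes, 1.27% (95% CI 0.937 to 1.68), against 1.78% of all GR fed windows and 0.172% (95% CI 0.0916 to 0.294) of windows 5 kb away on each side. GR fed sites without an LSD1 fed peak held it more often, at 3.07% where GR was kept and 2.99% where it was lost. Members minus these sites, the differences were -1.80 percentage points (95% interval -2.55 to -1.11) and -1.72 points (-2.43 to -1.05), and the later differences are given in the same way. In whole peaks, which are longer at members, the difference from kept sites without LSD1 was -1.58 points (-2.42 to -0.783), with shares of 2.06% and 3.64%. In the highest tertile of peak length, where members made up most sites, the shares in the central 300 bp were 1.66% and 1.82% and the interval of their difference, -1.45 to 0.845, included 0. Lost sites without LSD1 held the element at 0.595% in that tertile, so there the direction turned, to 1.07 points (0.0260 to 1.84). In the lowest tertile of GR fed fold both intervals included 0, at -0.998 to 0.452 for kept and -1.12 to 0.180 for lost sites without LSD1.

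Within the set the element was more frequent where GR was stronger, although GR fed fold is one of the values that chose the sites. Of the 870 members with a GR fed fold of 5 or more, 4.37% (95% CI 3.11 to 5.95) held a GRE-like sequence, and of the 2911 below that fold 0.344% (95% CI 0.165 to 0.631). Across quartiles of GR fed fold the shares were 0.423%, 0.106%, 0.423% and 4.14%. An LSD1 starved peak overlapped 8 of the 48 sites with the element, 16.7% (95% CI 7.48 to 30.2). The share was 29.0% of all members and 21.4% of all GR fed peaks, both inside that interval. The GR fold was lower in starved muscle at 37 of the 48, which was 77.1%. That was close to 79.5% of all members and 78.7% of all GR fed peaks with a GR starved peak. Allowing 2 mismatches, a setting added after the data had been seen, raised the share to 6.77% of members and 4.6% of lost sites with LSD1. That was a difference of 2.17 points (0.394 to 3.64).

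The distal LSD1 sites that lost GR are the nearest class to the members. They held a GRE-like sequence at 5 of 869 sites, 0.575%, and the difference of 0.694 points (-0.131 to 1.22) included 0. In whole peaks it was 1.49 points (0.622 to 2.09), with longer peaks at members. When every list was held to a q-value of 0.01 it was 1.37 points (0.427 to 2.12).

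The E-box of MyoD, a regulator of the myogenic lineage, was a frequent sequence at these sites. CAGCTG, which reads the same on both strands, lay in 35.1% (95% CI 33.5 to 36.6) of member windows, in 15.3% of windows 5 kb away and in 27% of all GR fed windows. A 300 bp window is shown from each of 2 sites, with the E-box CAGCTG and the GRE hexamer AGAACA in capitals. The Gm14321 window held both and the Mybph window the E-box alone.
Gm14321 (chr2:167844796-167845095): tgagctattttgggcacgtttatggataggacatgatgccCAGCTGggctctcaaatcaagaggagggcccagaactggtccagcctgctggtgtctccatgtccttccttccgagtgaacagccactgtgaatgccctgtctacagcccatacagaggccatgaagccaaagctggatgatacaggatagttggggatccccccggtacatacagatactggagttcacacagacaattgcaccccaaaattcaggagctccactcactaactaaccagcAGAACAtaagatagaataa
Mybph (chr1:134196218-134196517): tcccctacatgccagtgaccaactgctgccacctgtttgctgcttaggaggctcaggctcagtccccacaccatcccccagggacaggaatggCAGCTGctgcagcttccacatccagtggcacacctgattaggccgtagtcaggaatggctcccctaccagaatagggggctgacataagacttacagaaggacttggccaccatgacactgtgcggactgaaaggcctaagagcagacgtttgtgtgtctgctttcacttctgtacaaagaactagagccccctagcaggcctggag

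The share with an E-box was 33.0% at distal LSD1 sites that lost GR, and the difference of 2.04 points (-1.49 to 5.45) included 0. It was 29.3% at kept sites without LSD1 and 23.3% at lost sites without LSD1, which lay below the members by 5.74 points (3.51 to 7.96) and 11.8 points (9.66 to 13.9). In the lowest tertile of GR fed fold the members and the kept sites without LSD1 held it at 30.7% and 30.8%, with an interval of -4.49 to 4.32, and the difference was 7.09 points (3.11 to 11) in the middle and 8.08 points (4.64 to 11.5) in the highest tertile. By tertile of GR fed length it was 9.89 points (5.08 to 14.7), 10.6 points (6.78 to 14.4) and 5.07 points (1.32 to 8.64).

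The other motifs were searched without a mismatch on both strands. The KLF and SP motifs GGGCGG or CCACCC lay in 41.8% of member windows, against 26.9% in windows 5 kb away and 44.8% of all GR fed windows. Promoters that GR kept with LSD1 held them at 81.7%. Lost sites with LSD1 held them at 33.6%, a difference of 8.21 points (4.65 to 11.7). For kept sites without LSD1 the share was 35.3%, a difference of 6.54 points (4.21 to 8.86). For lost sites without LSD1 it was 27.8%, a difference of 14.0 points (11.8 to 16.2). The GRE hexamer AGAACA alone, which is also part of every exact element, lay in 26.9% of member windows and in 23.6% of those 5 kb away. Kept sites without LSD1 held it at 35%, a difference of -8.10 points (-10.3 to -5.88). MEF2 sites were found in 3.02% of member windows, against 0.450% at 5 kb and 2.27% of all GR fed windows. The TEAD motif CATTCC was found in 18.7%, against 15.1% and 16.4%. The AP-1 motif TGANTCA lay in 11.6% of member windows, in 9.02% of those 5 kb away and in 9.45% of all GR fed windows. Lost sites with LSD1 held it at 7.94%, a difference of 3.67 points (1.45 to 5.61), and kept sites without LSD1 at 13%, a difference of -1.42 points (-3.01 to 0.155). The FOX motif TGTTTAC lay in 5.53% of member windows, in 4.07% of those 5 kb away and in 4.78% of all GR fed windows. Lost sites with LSD1 held it at 3.11%, a difference of 2.42 points (0.884 to 3.66), and kept sites without LSD1 at 6.31%, a difference of -0.785 points (-1.94 to 0.340). C/EBP motifs lay in 2.12% of member windows, in 1.63% of those 5 kb away and in 2.05% of all GR fed windows. Kept sites without LSD1 held them more often, at 3.07%, a difference of -0.957 points (-1.75 to -0.199). Lost sites with LSD1 held them at 2.19% and lost sites without LSD1 at 1.68%, and both intervals of the difference included 0. NFI motifs lay in 3 member windows, in 3 windows of kept sites without LSD1 and in 8 of all 14077 GR fed windows. The NRF1 motif, GCGC spaced 2 bases from GCGC, lay in 1.88% of member windows and in 16.0% at promoters that GR kept with LSD1. A match is a description of these letters and not of binding.

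**Figure D1:**
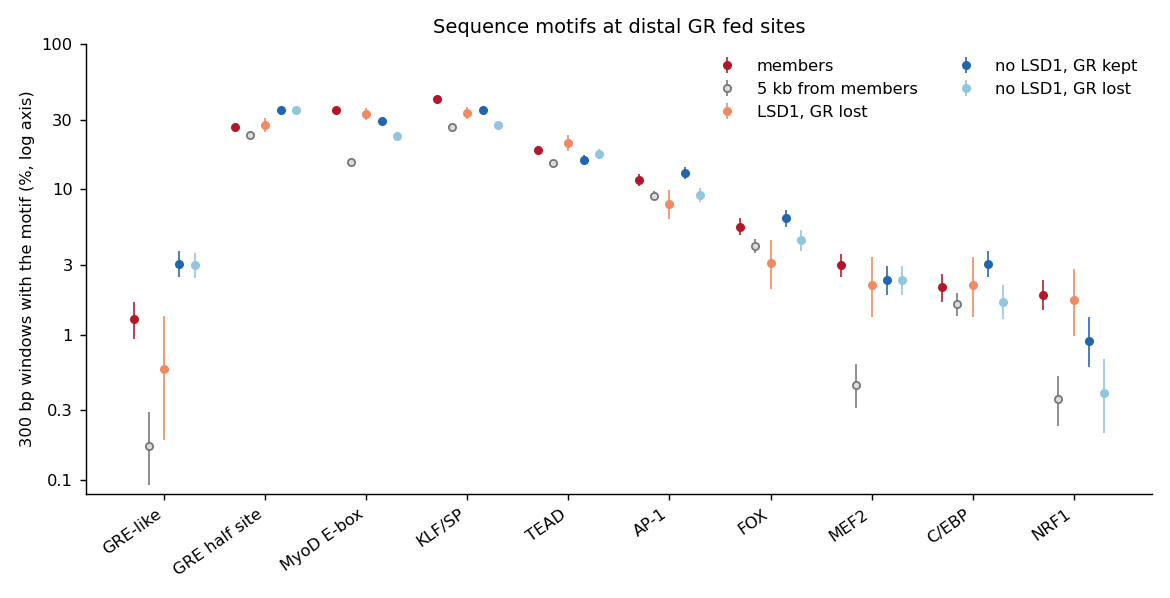
Share of 300 bp windows with each of the motifs drawn (log axis, %), with exact 95% intervals, for the members, for windows 5 kb from them, and for the other 3 classes of distal GR fed site. The GRE-like sequence lay in 1.27% of members and in 3.07% of kept sites without LSD1, whereas the MyoD E-box lay in 35.1% and 29.3%.

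Among the distal classes the members had the highest median GR fed fold and length, which is a description only. The GR fed fold ran from 1.27 to 18 with a median of 3.74, against 3.19 at lost sites with LSD1, 3.53 at kept sites without LSD1 and 3.16 at lost sites without LSD1. The median length of the GR fed peak was 366 bp, against 252 bp, 239 bp and 203 bp. At promoters that GR kept with LSD1 it was 364 bp. The LSD1 fed fold ran from 1.63 to 16.3 with a median of 4.21, against 4.07 at lost sites with LSD1. It exceeded the GR fed fold at 65.6% of members, a count made for members only. The LSD1 midpoint lay a median of 77.0 bp from the GR midpoint, and 69.0 bp at lost sites with LSD1.

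The GR starved fold had a median of 3.16 at members and was below the fed fold at 3013 of them, 79.5% (95% CI 78.2 to 80.8). Of all GR fed peaks with a GR starved peak, 78.7% had a lower starved fold, a share close to that of the members. The median ratio of starved to fed fold was 0.857, and it was 0.866 at kept sites without LSD1. At 523 members the starved fold was at most 1/1.5 of the fed fold, and at 18 it was at least 1.5 times as high. These counts were made for members only. From the lowest to the highest quartile of GR fed fold the share with a lower starved fold was 64.9%, 78.5%, 85.6% and 89.1%. The fed fold both set the quartiles and entered the comparison, so no conclusion on a loss of GR is drawn from this rise. The starved peak was the longer one at 60.1% of members, a count made for members only. The median of starved minus fed length was 61.5 bp at members and 66.0 bp at kept sites without LSD1. Over all GR fed peaks with a GR starved peak it was 79.0 bp, so a longer starved peak was not particular to members.

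**Figure D2:**
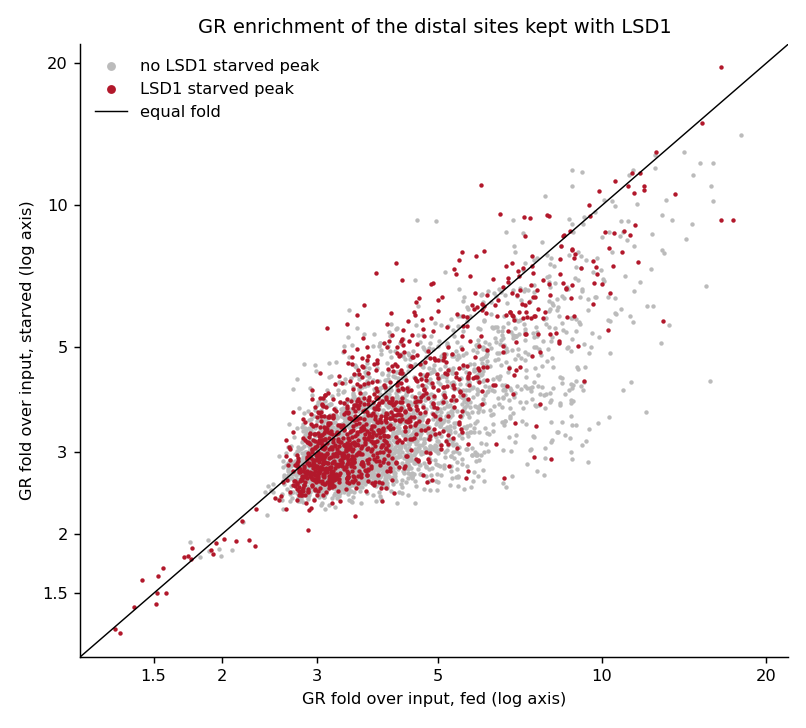
GR fold over input of each of the 3788 members in fed (horizontal) and starved (vertical) muscle, both on log axes, with members that had an LSD1 starved peak in red. Most points, 79.5%, lie below the line of equal fold.

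At the edges of the rule, the 46 members that shared 50 bp or less with a GR starved peak had a median GR fed fold of 2.95, and the 10 lost sites with a GR starved peak within 50 bp had 3.05. The 289 members within 200 bp outside a promoter had a median of 3.12, and the 937 promoter sites within 200 bp inside it had 3.08.

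LSD1 in starved muscle was not used by the rule. An LSD1 starved peak overlapped 1099 of the 3788 members, 29.0% (95% CI 27.6 to 30.5), against 21.4% of all GR fed peaks. The share was 16.0% (95% CI 13.7 to 18.6) at distal LSD1 sites that lost GR, and the members lay above it by 13 points (10.1 to 15.7). They lay above kept sites without LSD1, at 11.9%, by 17.1 points (15.3 to 19) and above lost sites without LSD1, at 3.87%, by 25.1 points (23.5 to 26.7). At promoters that GR kept with LSD1 the share was 52.3%.

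The difference from lost sites changed with the strictness of the LSD1 starved list and with the lost sites counted. At a q-value of 0.01 or less for LSD1 starved, 5.76% of members and 8.41% of lost sites had a peak, and the difference turned to -2.65 points (-4.78 to -0.827). With all lists at that q-value the shares were 7.15% and 7.85%, and the interval of the difference, -3.25 to 1.53, included 0. Of the lost sites, 2.58% lay off chromosomes 1 to 19, X and Y and 2.76% of the rest were at least 80% repeat in their window, against 0.185% and 0.238% of members. Without such sites and without chromosome Y, a restriction chosen after the values had been seen, the shares at a q-value of 0.01 were 5.6% and 3.43%, a difference of 2.17 points (0.560 to 3.46). On the same sites the lists as deposited gave 29.0% and 11.5%, a difference of 17.5 points (14.8 to 19.9). With the LSD1 starved list cut by fold to the length of the LSD1 fed list, also chosen after the values had been seen, all members and lost sites stood at 8.39% and 3.14%, a difference of 5.26 points (3.66 to 6.59).

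Peak strength and length moved with these classes, and their part in the result was not tested beyond the tertiles that follow. By tertile of GR fed fold over all distal GR fed peaks, 32.0%, 28.5% and 28% of members had an LSD1 starved peak, and 25.2%, 10.4% and 5.41% of lost sites with LSD1. The difference was 6.74 points (1.31 to 11.9), 18 points (13.4 to 22) and 22.6 points (17.8 to 25.8). By tertile of GR fed length the members' share was 16.9%, 21.3% and 37.8%, against 12.7%, 13.3% and 22.8%, and in the shortest tertile the interval of the difference, -0.806 to 8.90, included 0.

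The LSD1 fed peak chose the members, so the following count is a description. The LSD1 fed fold exceeded the starved fold at 1015 of the 1099 members with both LSD1 peaks, 92.4% (95% CI 90.6 to 93.9), against 89.6% of the 2300 GR fed peaks with both. The median LSD1 starved fold was 3.48 and its highest value 8.17. Of the 1099, 218 had an LSD1 starved q-value of 0.01 or less, which was 19.8%. Over all GR fed peaks, 664 of the 3024 with an LSD1 starved peak did. At the same limit 63.1% of members had an LSD1 fed peak and 78.6% a GR starved peak.

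**Figure D3:**
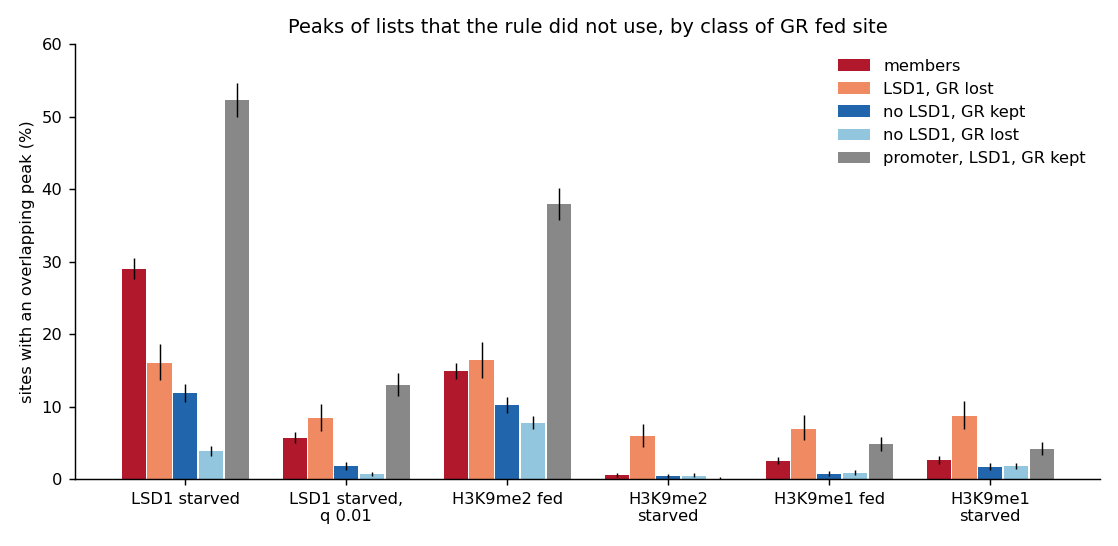
Share of sites (%) overlapped by a peak of each list that the rule did not use, with exact 95% intervals, for members, the other 3 distal classes and promoters that GR kept with LSD1. Members had an LSD1 starved peak at 29.0% and lost sites at 16.0%, an order that reversed to 5.76% and 8.41% at a q-value of 0.01.

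H3K9me2, a mark of repressed chromatin that LSD1 can remove, was called in fed muscle at 567 members, 15% (95% CI 13.8 to 16.1), against 16.5% of all GR fed peaks. Lost sites with LSD1 had it at 16.4%, and the difference of -1.40 points (-4.20 to 1.17) included 0. Kept sites without LSD1 had it at 10.2%, which was below the members by 4.82 points (3.24 to 6.38). Within tertiles of GR fed length this difference was 1.83 points (-0.766 to 4.72), 1.15 points (-1.40 to 3.66) and 4.54 points (1.38 to 7.49), so it included 0 in the lower 2. Promoters that GR kept with LSD1 had it at 37.9%. The peaks were weak, with a median fold of 3.24, and only 24.3% of them had a q-value of 0.01 or less. In starved muscle H3K9me2 was called at 22 members, 0.581%, against 0.766% of all GR fed peaks, in a list of 6624 peaks against 171402 in fed muscle.

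H3K9me1 was called at 98 members in fed muscle, 2.59% against 2.27% of all GR fed peaks, and at 101 in starved muscle, 2.67% against 2.80%. Lost sites with LSD1 carried these peaks more often. H3K9me1 fed peaks overlapped 6.95% of lost sites, and the members differed from them by -4.36 points (-6.28 to -2.77). H3K9me1 starved peaks overlapped 8.74% of lost sites, a difference of -6.08 points (-8.17 to -4.30), and H3K9me2 starved peaks 5.94%, a difference of -5.36 points (-7.12 to -3.96). Without repeats, chromosome Y and unplaced sequence the H3K9me1 fed shares were 2.44% and 2.49%, with an interval of -1.40 to 0.969. The starved marks then differed by -1.52 points (-3.11 to -0.281) for H3K9me1 and by -1.01 points (-2.03 to -0.392) for H3K9me2. H3K9me2 fed peaks of a q-value of 0.01 or less overlapped 3.64% of members and 8.63% of lost sites, a difference of -4.99 points (-7.09 to -3.20) that was -0.297 points (-1.88 to 0.944) on these restricted sites. As deposited, H3K9me2 fed peaks there were more frequent at members than at lost sites, at 14.8% and 11.8%, by 2.93 points (0.330 to 5.25).

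At 2277 members, 60.1%, no peak of the 5 lists outside the rule overlapped, against 66.5% of all GR fed peaks and 74.3% of the distal ones. An LSD1 starved peak alone was found at 825 members, 21.8%, against 14.3% of all GR fed peaks and 11.8% of the distal ones. H3K9me2 fed and LSD1 starved peaks met at 233 members, 6.15%, against 6.28% of all and 3.46% of distal GR fed peaks. Of the members with an H3K9me2 fed peak, 41.1% (95% CI 37.0 to 45.3) had an LSD1 starved peak, against 26.9% (95% CI 25.4 to 28.5) of the others, and over all GR fed peaks with an H3K9me2 fed peak the share was 38.1%. Peak length moved with this, and its part was not tested. H3K9me2 fed peaks were found at 8.81%, 11.5% and 19.2% of members by tertile of length. All 5 lists overlapped 9 members, 0.238%, against 0.390% of all GR fed peaks.

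**Figure D4:**
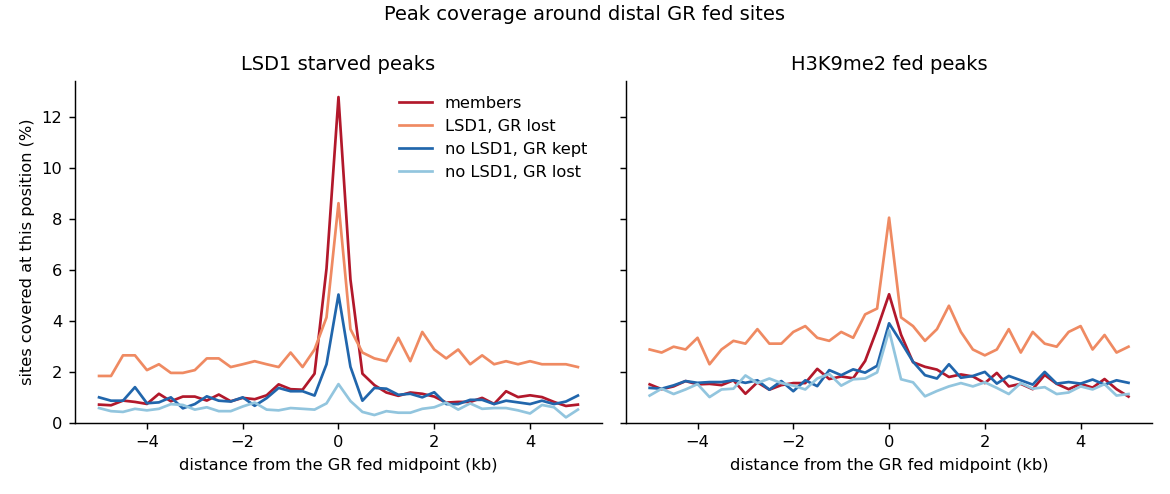
Share of sites (%) at which the position is covered by an LSD1 starved peak (left) or an H3K9me2 fed peak (right), from 5 kb before to 5 kb after the GR fed midpoint in steps of 250 bp, for the 4 distal classes. LSD1 starved coverage of members was 12.8% at the midpoint and 0.714% at 5 kb on either side, and H3K9me2 fed coverage was 5.05% at the midpoint.

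Around the sites both lists were narrow. LSD1 starved peaks covered the midpoint of 12.8% of members, 1.32% of positions 1 kb before it and 0.714% of those 5 kb before it. The lost sites started from a higher surrounding level, with 8.63% at the midpoint and 1.84% at 5 kb before it. H3K9me2 fed peaks covered 5.05% of member midpoints and 1.51% at 5 kb before them, and 8.06% and 2.88% at lost sites.

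The members lay mainly within genes. Of the 3781 on the assembled chromosomes, 2029 were intronic (53.7%, 95% CI 52.1 to 55.3), 37.1% intergenic and 9.26% exonic. The intronic share was 50.9% at lost sites with LSD1, and the difference of 2.80 points (-0.876 to 6.48) included 0. It was higher at kept sites without LSD1, 57.9%, a difference of -4.29 points (-6.66 to -1.90). At lost sites without LSD1 it was 57.3%, a difference of -3.67 points (-5.99 to -1.35). The median distance of members to the nearest TSS was 17064 bp, against 21219 bp at lost sites with LSD1 and 17000 bp at kept sites without LSD1. Sites over 50 kb away made up 21.0% of members and 27.6% of lost sites, a difference of -6.59 points (-9.91 to -3.43). Members were found on every chromosome, from 340 on chromosome 11 to 10 on X and 5 on Y. Another member lay within 50 kb of 58.3% of them, and 7.19% had 4 or more such neighbours. Neighbours were counted for members only, so whether other GR fed sites lie as close together was not tested.

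The nearest genes numbered 2511, which is 9.59% of the 26180 annotated genes. Most of them, 70.6%, had 1 member, and 128 had 4 or more. The lists below were chosen with earlier results of these data known, so their counts are descriptions, and a gene with long flanks is more often the nearest gene of a site. Against 9.59% of all genes, 84.6% of the glucocorticoid response list, 71.7% of contraction and sarcomere genes, 18 of the 30 fuel metabolism genes, 59.1% of myogenic factors, 53.1% of atrophy, autophagy and proteolysis genes, 52.4% of clock genes and 42.9% of insulin, IGF1 and mTORC1 genes were nearest to a member. Of 22 genes that mark other cells of muscle tissue 1 was, and it was Pecam1, an adhesion protein of endothelium, with GR folds of 3.04 and 3.05. Of the 8 marker genes of skeletal muscle 5 were, and none of the 4 immune, 3 fibroblast, 2 adipocyte and 2 satellite cell markers was. High shares of the lists other than cell markers were not particular to members. Kept sites without LSD1 reached 26.7% to 67.9% of each such list, against 8.59% of all genes. Lost sites without LSD1 reached 23.8% to 57.7%, against 9.93%. Lost sites with LSD1 reached 9.52% to 22.7%, against 2.98%.

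**Figure D5:**
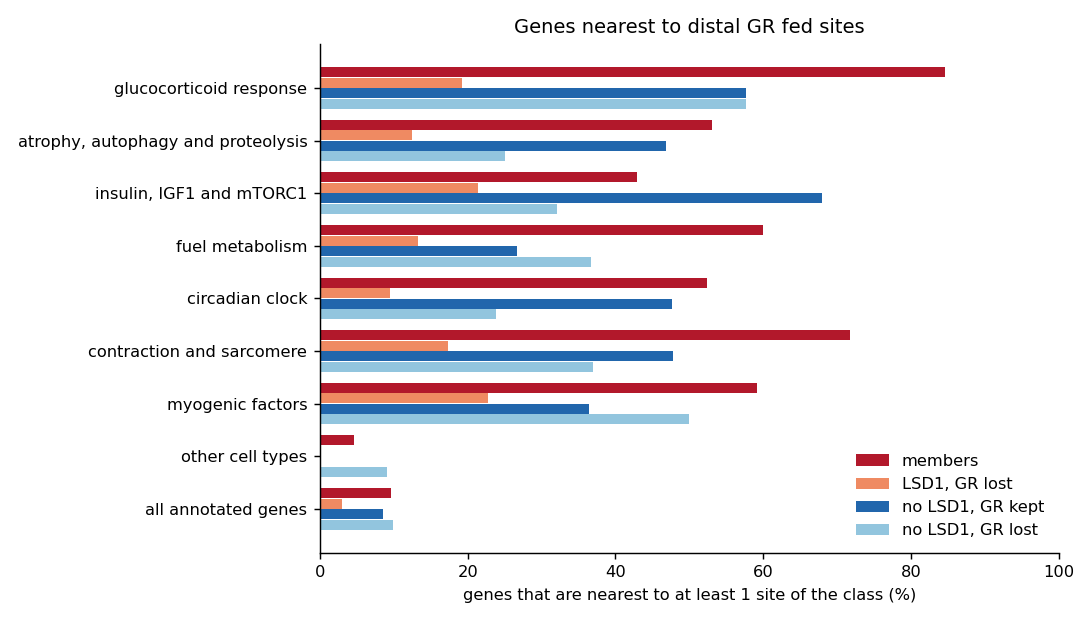
Share of the genes of each list (%) that were the nearest gene of at least 1 site of each distal class, beside the same share over all annotated genes. The members reached 84.6% of the glucocorticoid response list and 4.55% of the markers of other cell types, against 9.59% of all genes. Kept and lost sites without LSD1 each reached 57.7% of the glucocorticoid response list, against 8.59% and 9.93% of all genes.

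Glucocorticoid response genes had 51 members near 22 of 26 genes, with a median GR fed fold of 5.49, against 3.73 over the members of all genes. The genes without a member were Cebpb, Lcn2, Mt1 and Sult1a1. An LSD1 starved peak overlapped 24 of the 51, 47.1%, against 29.0%. Zbtb16, which encodes the zinc finger factor PLZF, had 7 members, 6 of them intronic. The GR fed fold was highest, 16.6, at 112 kb from the TSS, where the starved fold was 9.30, and it was 3.58 at the exonic site 110 bp from the TSS. Hif3a, a hypoxia-inducible factor subunit, had an intronic site of fold 13.4 that stood at 9.28 in starved muscle, with no LSD1 starved peak. Fkbp5, a chaperone cofactor that dampens GR, had 1 site, in an intron 57413 bp from the TSS, with GR folds of 5.49 and 4.01 and LSD1 folds of 3.93 and 3.46.

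At Ddit4 all 5 members were intergenic, 2 of them downstream of the TSS and 3 upstream. From the most upstream to the most downstream site their GR fed folds were 8.58, 4.35, 7.60, 3.25 and 6.90 and their starved folds 6.68, 2.76, 6.60, 4.64 and 7.96. The 3 upstream sites were thus lower and the 2 downstream sites higher in starved muscle. LSD1 starved peaks overlapped the site with the exact GRE and the one 18.4 kb upstream, with folds of 3.49 and 3.25. Klf15, a factor that drives amino acid breakdown, had 4 members, the strongest 1022 bp from the TSS with GR folds of 9.62 and 7.63 and LSD1 folds of 6.42 and 4.26.

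In the atrophy, autophagy and proteolysis list 17 of 32 genes had 35 members, of which 14 had an LSD1 starved peak. Mstn, the secreted inhibitor of muscle growth, had 1 site 23.9 kb upstream with GR folds of 13 and 7.90. Cblb, a ubiquitin ligase that targets insulin signalling, had an intronic site with 11.6 and 10.1. Trim63 and Fbxo32 encode the muscle ubiquitin ligases MuRF1 and atrogin-1. At Trim63 the GR fold was higher in starved muscle at both members, 5.99 in fed and 11 in starved muscle at the first and 3.65 and 5.32 at the second, both upstream. At Fbxo32 it was lower, 3.57 and 2.72, at 1 intronic site. Both genes had 1 member with an LSD1 starved peak. Tfeb, a master factor of lysosome genes, had 5 members, all in introns, with GR fed folds from 2.78 to 8.73 and LSD1 starved peaks at 3.

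Among insulin, IGF1 and mTORC1 genes 12 of 28 had members, a smaller share than the 67.9% reached by kept sites without LSD1. Tbc1d1, a Rab GTPase regulator of glucose transport, had 6 members and Pik3r1 had 4. In fuel metabolism 18 of 30 genes had members. Ucp3, a mitochondrial carrier of fasted muscle, had 5, the strongest with GR folds of 11.2 and 9.27. Lpin1, a phosphatidate phosphatase and coactivator, had an intergenic site at 9.51 and 9.47 that also carried LSD1 starved (4.16) and H3K9me2 fed (4.91) peaks. Gys1, muscle glycogen synthase, had an intronic site at 7.64 and 4.13. In the clock list Per1, Bhlhe41, Arntl and Rora led, with highest GR fed folds of 10.4, 7.68, 6.61 and 5.89, and 11 of 21 genes had members.

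Contraction and sarcomere genes had 46 members near 33 of 46 genes, and their median ratio of starved to fed GR fold was 0.810. Mybpc1, a slow fibre myosin binding protein, had an intronic site with GR folds of 11.4 and 10.6. At Mybph, a related protein, GR and LSD1 were about equal in fed muscle, at 9.63 and 9.51, and stood at 6.18 and 3.58 in starved muscle. Sgcd, a sarcoglycan of the dystrophin complex, had GR folds of 8.75 and 3.20, and Mylk4, a myosin light chain kinase, of 8.28 and 3.30. Among myogenic factors 13 of 22 had members, with 6 at Mef2a and 4 each at Tead1 and Tead4. Tead4 had the strongest, 10.0 and 6.98. At Eya4, a transcriptional coactivator, and at Tead1 the GR fold of the leading site was 5.55 and 5.81 in fed and 6.25 and 6.02 in starved muscle.

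The 12 members of highest GR fed fold ranged from 14.6 to 18, and 1 of them held a GRE-like sequence, the one near 4933431G14Rik. The hexamer AGAACA was present in 10 of the 12 windows and the E-box in 5, against 26.9% and 35.1% of all member windows. Among the 100 members of highest GR fed fold the counts were 50 and 33. The GR fold was lower in starved muscle at 11 of the 12, against 79.5% of all members, and the ranking itself used the fed fold. The exception was the intergenic site 67.5 kb from Gm14321, shown above, which stood at 16.6 in fed and 19.7 in starved muscle and kept LSD1 at 4.92 and 4.18, with an LSD1 starved q-value of 0.00104. The lowest ratio of starved to fed fold in the whole set, 0.269, was at the intronic site of Nnt, a mitochondrial transhydrogenase, with 15.8 and 4.24. The highest ratio, 2.03, was 14.6 kb upstream of Coq8a, a coenzyme Q biosynthesis protein, with 4.58 and 9.32 and with an H3K9me1 starved peak of fold 5.11.

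LSD1 was strongest in an intron of Cbfa2t3, a corepressor of the ETO family, with a fold of 16.3 in fed and 3.36 in starved muscle, while GR had 8.24 and 5.37. The longest site, 4880 bp, lay 2.5 kb upstream of Neat1, the architectural RNA of paraspeckles. It had GR folds of 4.42 and 5.16, LSD1 folds of 4.09 and 4.11 and an LSD1 starved q-value of 0.000333.

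Cuedc1 was nearest to the most members, 10, all in introns, with GR fed folds from 2.89 to 6.69. 9430078K24Rik and Sec61b followed with 9, and 5 genes tied at 8, which were A330074K22Rik, Gm14321, Hnrnpll, Rny3 and Sox6. At Gm14321 6 of the 8 had an LSD1 starved peak and at A330074K22Rik none. The members near Rny3, a small Y RNA gene, were among the weakest of the set by GR fed fold. Their GR fed folds were 1.71 to 2.30 and their starved folds 1.79 to 1.96. Only 36 members, 0.95%, had a GR fed fold under 2.5, of which 8 were these and 6 were near Rn4.5s, another small RNA gene of chromosome 6. Of the 36, 61.1% (95% CI 43.5 to 76.9) had an LSD1 starved peak and 75% (95% CI 57.8 to 87.9) a peak of H3K9me1 or H3K9me2. Over all members these shares were 29.0% and 18.1%.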

How the data were processed

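Peaks were called by the authors in 8 libraries, 1 each for GR, LSD1, H3K9me1 and H3K9me2 in fed and starved muscle, with 2 input libraries as controls. Per the methods of the study, single-end reads were mapped to mm10 with Bowtie, unique reads were kept, regions of a human blacklist were removed and broad peaks were called with MACS2 against input at a fixed extension. The submitters' processing notes name bcl2fastq 2.20.0.422. The deposited peak lists give each peak's fold over input, a ratio, and its q-value as a −log10 value, and no read counts. GRCm38 is the same assembly as mm10, and positions, sequences and 45756 curated transcripts came from RefSeq.

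Overlaps needed 1 bp, and a site took the highest fold among overlapping peaks. Shares carry exact Clopper-Pearson 95% intervals and differences Newcombe 95% intervals. Fed and starved muscle were not tested against each other, since each group had 1 library. Python 3.11.15, numpy 2.4.6, SciPy 1.17.1, statsmodels 0.14.6 and matplotlib 3.10.9 were used, and the scripts were tested on simulated data.

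The named sites were the 12 members of highest GR fed fold off chromosomes 18 and Y, up to 4 per gene list by GR fed fold, the members of highest LSD1 fold, length and highest and lowest fold ratio, and the 5 genes with the most members. Because 5 genes tied at 8 members, all were named. Other sites of listed genes and those near Rn4.5s were named after their values had been seen. The members and lists were chosen with earlier results of these data known. Alternatives were a q-value of 0.01, other overlap, promoter, chromosome, merging and motif settings, midpoint distance and a fold of 5. A further motif is not reported here.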

Additional observations from a re-analysis of the deposited data

How the results depend on the processing

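Of 70 values under alternative settings, 38 stayed within the 95% interval of the main value, or within 1.5 times the main count, and 32 did not. At a q-value of 0.01 in all lists the members numbered 1789, and LSD1 starved peaks lay at 7.15% of them and 7.85% of lost sites, GRE-like sequences at 1.68% and H3K9me2 fed peaks at 4.08% of members. LSD1 starved and H3K9me2 fed shares of members were 26.6% and 12.6% with 50% of the shorter peak overlapped, 26.5% and 12.8% with promoters to 1 kb downstream, 26.8% and 13% with no base in a promoter, and 32.1% and 20.0% with midpoints within 500 bp. Counting GR peaks within 1 kb once gave lost sites an LSD1 starved share of 12.7%. At a fold of at least 5 the LSD1 starved shares of members and lost sites were 26.5% and 5.71%, and the GRE-like shares 4.37% and 2.86%. GRE-like shares were 0.132% and 0.115% without mismatch, and 2.06% of members in whole peaks. The following were chosen after seeing the data. With 2 mismatches the GRE-like shares were 6.77% and 4.6%. With the tested list cut by fold to the length of the LSD1 fed list, LSD1 starved shares were 8.39% and 3.14%, and H3K9me2 fed 0.95% of members. With the tested list alone at a q-value of 0.01 they were 5.76%, 8.41% and 3.64%, and also without repeats, chromosome Y and unplaced sequence 5.6%, 3.43% and 3.37%. The cause of these moves was not tested. No paired analysis was possible because each group holds 1 library, and for the same reason no library could be left out. The depth is unknown.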
